A study of Mus musculus with 8 samples.

Results

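Genes encoding 10 mesenchymal transcription factors, Prrx1, Prrx2, Twist1, Twist2, Snai1, Snai2, Zeb1, Zeb2, Osr1 and Tcf21, were examined for CUT&Tag peaks in mouse embryonic fibroblasts at day 5 of reprogramming. The genes were chosen by name, with earlier results of these data known. Their 10 windows, among 21938 protein-coding gene windows, were the GENCODE gene body in the mm10 build with 20 kb added on each side. The windows ran from 42.2 kb for Twist1 to 223.6 kb for Zeb1 and covered 903.4 kb in all. In CUT&Tag, an antibody leads a transposase to its target so that DNA nearby is cut and tagged for sequencing. The targets were the FLAG tag on NANOG, BRG1 (SMARCA4, the catalytic ATPase of BAF chromatin remodellers), H3K27ac (a mark of active promoters and enhancers) and H3K4me1 (a mark of enhancers).

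Both arms were fibroblasts of E13.5 embryos of OG2 mice, which carry an Oct4-GFP reporter, crossed with 129 females. Both were transduced with retroviral vectors for Oct4 and for a form of Nanog. The arm labelled Nanog+Oct4 received wild-type Nanog (NanogWT). The arm labelled NanogN70+Oct4 was taken, from the text of the study, to be NanogBiD, in which the N terminus of Nanog carries the domain of SS18 that interacts with BRG1. Both forms of Nanog carried the FLAG tag, and the libraries were bulk cultures, so cells that reprogrammed and cells that did not were measured together, and a change in the share of cells cannot be told apart from a change in each cell. Each of the 4 targets had 1 library per arm, made by merging replicates whose number was not stated for these libraries, so no difference between arms could be set against the spread between cultures and no test between arms was made. The depth of each library is unknown. The 8 lists held 30859 to 74782 peaks. Fibroblast marker genes had an H3K27ac promoter peak in 9 of 9 cases in both arms, against 2 and 3 of 5 macrophage markers, 1 and 3 of 4 endothelial markers and 0 and 1 of 4 epithelial markers in NanogWT and NanogBiD. Over all protein-coding genes the shares with such a peak were 57.1% and 59.9%.

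TWIST, SNAIL and ZEB proteins bind E-box sequences and drive the epithelial to mesenchymal transition, in which SNAIL and ZEB factors repress E-cadherin and other epithelial genes. PRRX, OSR1 and TCF21 are regulators of embryonic mesenchyme and its fibroblast derivatives. Fibroblasts pass through the reverse change, from a mesenchymal to an epithelial state, early in reprogramming. Heights below are tag pileups at the summit of a peak. A region without a peak is one where the authors' caller passed no threshold, and its tag number is not known to be 0. Positions are given along transcription from the first annotated start of the gene.

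In all, 31 FLAG peaks were found in the 10 windows in NanogWT against 35 in NanogBiD. The ratio was 1.13 (0.676 to 1.89, an exact binomial 95% interval for counting error only). Such an interval takes the peaks of the arms as independent, although many sites had a peak in both arms. The whole FLAG lists gave 1.27. BRG1 peaks numbered 20 and 28, a ratio of 1.4 (0.761 to 2.62) beside 1.74 for the whole lists. H3K27ac peaks numbered 23 and 25, a ratio of 1.09 (0.592 to 2.004) beside 1.20, and H3K4me1 peaks 45 and 37, a ratio of 0.822 (0.517 to 1.30) beside 0.791. Every one of these intervals included 1 and the ratio of the whole list. When each list was limited to its top 20000 peaks by score, the directions for the histone marks turned, to 0.75 for H3K27ac and 1.71 for H3K4me1, while FLAG (1.71) and BRG1 (1.2) stayed above 1. The ratio of the lists themselves is then 1 by construction. The BRG1 ratio was 2.29 (7 and 16 peaks) at a minimum score of 100 and likewise at a minimum height of 15 tags, beside 1.88 and 1.76 for whole lists filtered alike. The length covered by peaks went from 49.1 kb in NanogWT to 46.0 kb in NanogBiD for FLAG, from 25.6 to 34.3 kb for BRG1, from 41.6 to 42.6 kb for H3K27ac and from 54.9 to 40.01 kb for H3K4me1.

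Per gene, FLAG peaks were more numerous in NanogBiD in 5 of the 10 windows and fewer in 2, where 40.9% of all protein-coding windows had more and 14.4% had fewer. For BRG1, 4 windows had more and 2 had fewer, beside 42.1% and 10.1% of all windows. For H3K27ac, 3 had more and 2 had fewer, beside 29.1% and 13.5%. For H3K4me1 the order was opposite, with more in 1 window and fewer in 5, beside 16.3% and 42.5%. With the top 20000 peaks of each list these counts turned for both marks, to more in 5 windows and fewer in 1 for H3K4me1, and more in 1 and fewer in 5 for H3K27ac. All 10 windows held a FLAG peak in both arms, beside 77.7% of all windows in NanogWT and 79.8% in NanogBiD, and all 10 held an H3K4me1 peak, beside 80.9% and 79.8%. BRG1 peaks were present in 8 windows in NanogWT and 10 in NanogBiD, beside 72.5% and 77.5%, and H3K27ac peaks in 8 and 9, beside 73.8% and 76.7%. The 2 windows with BRG1 in NanogBiD and none in NanogWT were those of Zeb2 and Tcf21, a pattern found in 6.54% of all windows. Osr1 was the gene with H3K27ac in NanogBiD alone, which 4.11% of all windows showed.

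**Figure D1:**
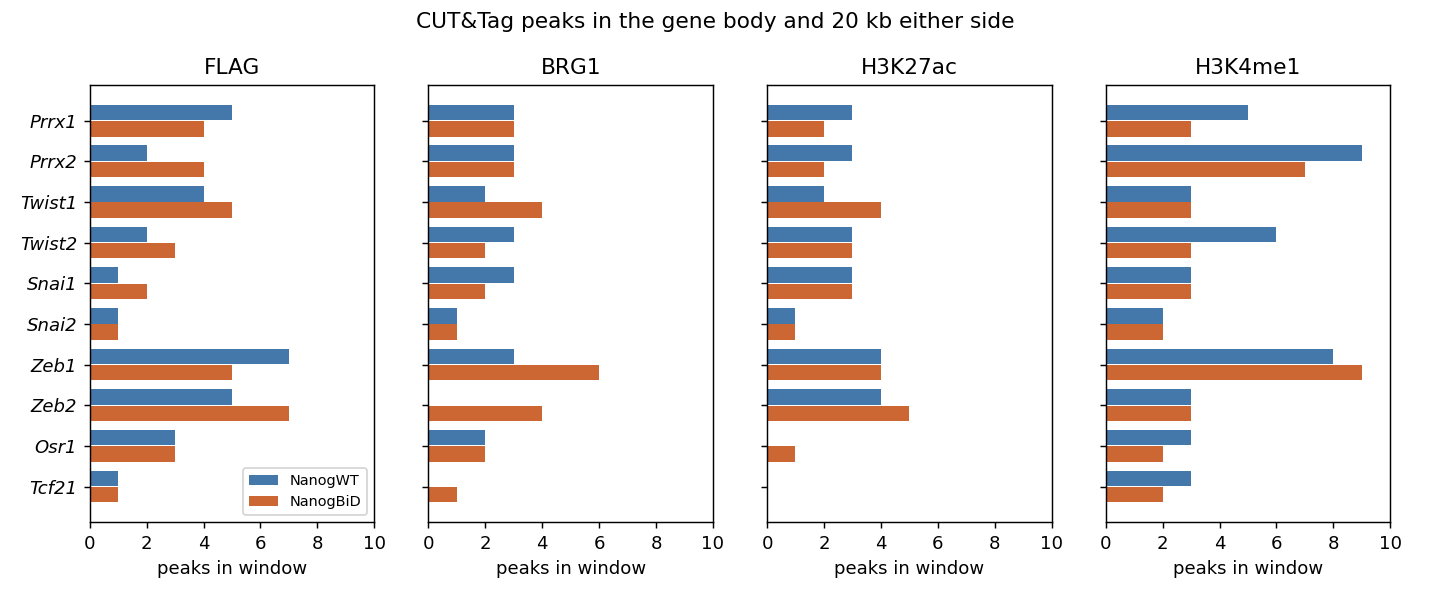
Number of peaks (x axis) in each gene window for FLAG, BRG1, H3K27ac and H3K4me1, with 1 library per bar. Zeb2 has 0 BRG1 peaks in NanogWT and 4 in NanogBiD, and Twist2 has 6 H3K4me1 peaks in NanogWT and 3 in NanogBiD.

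TWIST1 is a basic helix-loop-helix factor of cranial and limb mesenchyme. Its gene (chr12:33957671-33959829, plus strand) held FLAG peaks with heights of 31, 26, 19 and 14 tags in NanogWT, and 39, 29, 23, 18 and 9 in NanogBiD. BRG1 heights were 27 and 14 in NanogWT, and 27, 26, 16 and 14 in NanogBiD. The 2 additional BRG1 peaks lay downstream of the gene. At +22 kb (chr12:33978751-33980596, intergenic, with Twist1 as the nearest coding start and running past the end of the window), NanogBiD had FLAG at 39, BRG1 at 26, H3K27ac at 12 and H3K4me1 at 15, while NanogWT had no peak of any target. At +15.3 kb, FLAG was 26 and 29 in the respective arms, BRG1 was called in NanogBiD alone at 14, H3K27ac in NanogBiD alone at 11, and H3K4me1 in NanogWT alone at 15. The region at +10 kb had all 4 targets in both arms, with FLAG at 14 and 18 and BRG1 at 14 and 16. With flanks of 10 kb in place of 20 kb, each target had 2 peaks in each arm at Twist1, so the differences in number lay in the outer flanks.

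At the Twist1 promoter, FLAG went from 31 to 23 and BRG1 was 27 in both arms. H3K27ac there went from 24 in NanogWT to 37 in NanogBiD, a ratio of 1.54 (0.898 to 2.69), the largest upward change in H3K27ac among shared regions of the 10 windows. The caller scored these H3K27ac peaks at 387.3 and 375.3, so the score did not rise with the height. H3K4me1 was 16 in both arms. The largest downward change in FLAG also belonged to Twist1, at -17.4 kb (chr12:33939686-33940823, intergenic, nearest coding start Ferd3l), from 19 to 9, a ratio of 0.474 (0.189 to 1.10), with no peak of the other targets. Sequences 100 bp either side of the NanogBiD FLAG summit at the region present in NanogBiD alone and at the region with the largest fall are shown 5′ to 3′ on the plus strand, in GRCm38 (mm10) from RefSeq, to set the most opposed Twist1 sites beside each other. Capitals mark matches to the motifs described further on, here SOX and the NANOG core in the first and the OCT octamer and RUNX in the second.
Twist1 +21.7 kb, chr12:33979226-33979426: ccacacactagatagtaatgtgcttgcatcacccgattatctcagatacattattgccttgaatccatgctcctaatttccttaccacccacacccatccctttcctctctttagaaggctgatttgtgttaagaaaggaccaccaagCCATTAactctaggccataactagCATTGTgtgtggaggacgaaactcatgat
Twist1 -17.6 kb, chr12:33939973-33940173: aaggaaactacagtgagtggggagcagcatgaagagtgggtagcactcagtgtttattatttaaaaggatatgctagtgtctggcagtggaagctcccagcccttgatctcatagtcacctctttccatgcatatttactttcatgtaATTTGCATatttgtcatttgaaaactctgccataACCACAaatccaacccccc

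TWIST2 is the close paralogue of TWIST1 and acts in dermal fibroblasts. Its window (gene at chr1:91801461-91848028, plus strand) had FLAG heights of 24 and 18 in NanogWT, and 35, 33 and 9 in NanogBiD. Both main FLAG sites were intronic and taller in NanogBiD. At +15.5 kb, FLAG went from 18 to 33, a ratio of 1.83 (1.003 to 3.46), with summits 9 bp apart, and BRG1 from 19 to 24. At +23.8 kb, which also covers an exon of Gm29101, FLAG went from 24 to 35, and BRG1 was called in NanogBiD alone at 23. H3K27ac at the +15.5 kb site went from 16 to 22. An H3K27ac peak of 22 tags, with a score of 60.5, reached into the region at +23.8 kb in NanogWT alone.

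The Twist2 promoter, which overlaps an exon of Gm29100, ran the other way for BRG1. BRG1 had peaks of 13 and 14 tags in NanogWT and none in NanogBiD, and a FLAG peak of 9 tags was present in NanogBiD alone. H3K27ac there went from 23 to 15, a ratio of 0.652 (0.316 to 1.30), the largest fall in H3K27ac among shared regions of the 10 windows. H3K4me1 heights over the Twist2 window were 22, 19, 18, 17, 16 and 15 in NanogWT, and 20, 19 and 13 in NanogBiD. The 3 peaks called in NanogWT alone lay in the gene between +34.7 and +43.4 kb, where no other target had a peak.

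**Figure D2:**
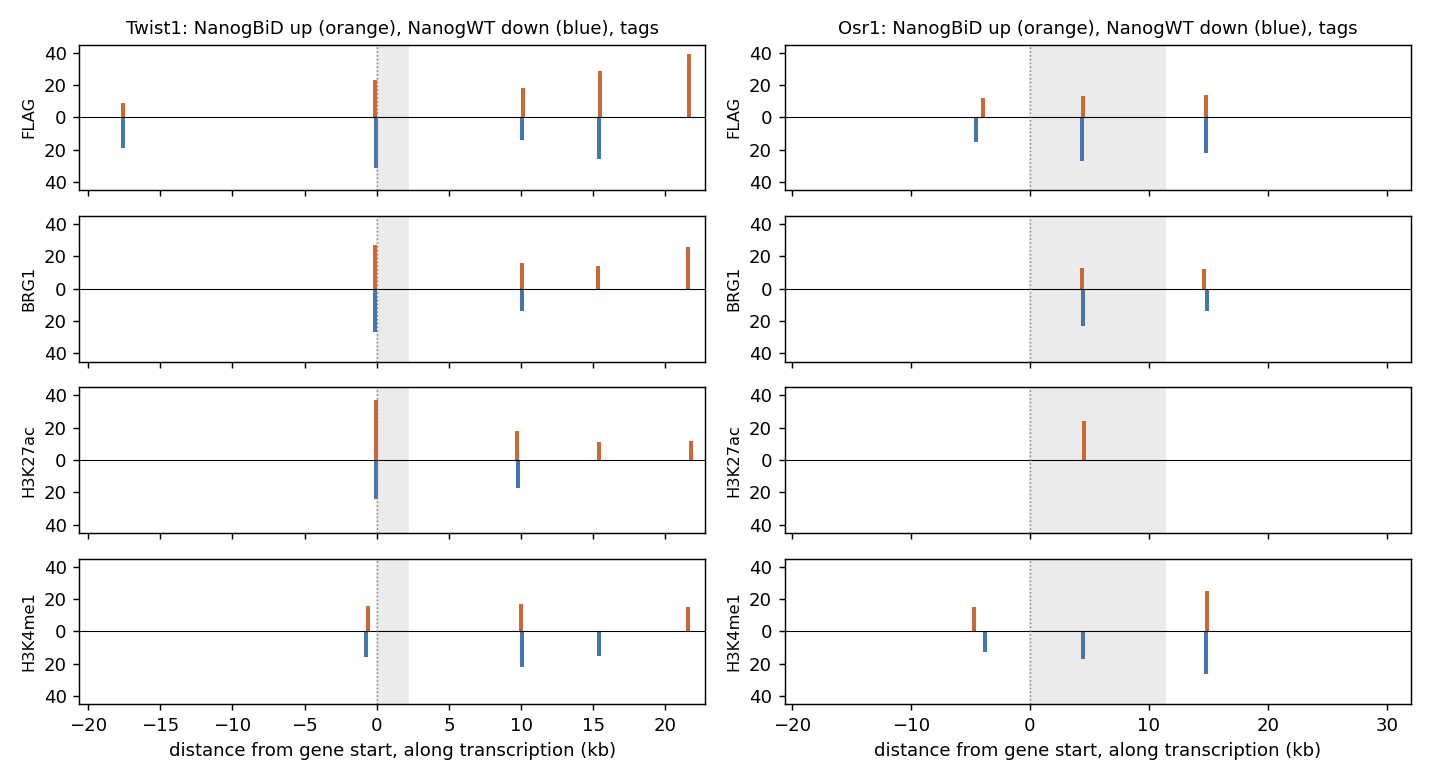
Summit heights in tags (y axis, NanogBiD upward in orange, NanogWT downward in blue) against distance from the gene start in kb for Twist1 (left) and Osr1 (right), with the gene body in grey. At Twist1 the FLAG summit of 39 tags at +21.7 kb has no NanogWT counterpart, and at Osr1 the FLAG summits are 27 and 22 tags in NanogWT against 13 and 14 in NanogBiD at the corresponding sites.

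ZEB2 is a zinc finger and homeodomain repressor of E-cadherin that also binds SMAD proteins. Its gene (chr2:44983632-45117395, minus strand) had the largest difference in BRG1 peak number among the 10. No BRG1 peak was called in NanogWT, and 4 were called in NanogBiD, with heights of 24, 16, 16 and 10. The numbers were 0 and 2 at a minimum score of 100, and 0 and 1 with the top 20000 peaks. Twist1 had 2 and 4 in both of these settings, so the ranking of Zeb2 depended on the setting. FLAG heights were 21, 14, 13, 10 and 9 in NanogWT, and 39, 24, 21, 19, 17, 16 and 13 in NanogBiD. Of the FLAG sites, those at +45.8 kb and +111.2 kb were common to both arms, and the other FLAG peaks lay at different places in the arms.

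The intronic site at +45.8 kb (chr2:45070990-45072149) had the largest upward change in FLAG among shared regions of the 10 windows, from 13 to 39 tags, a ratio of 3.0 (1.57 to 6.13), and the summits were 5 bp apart. At the same site BRG1 at 24, H3K27ac at 18 and H3K4me1 at 13 were called in NanogBiD and in none of the NanogWT lists. FLAG at +111.2 kb went from 10 to 17, with no other target. Both regions hold an OCT octamer within 100 bp of the summit. FLAG and BRG1 were present together in NanogBiD alone at +24.2 kb (chr2:45092293-45094063, intron), at 24 and 16 tags, and at +3.9 kb (chr2:45112698-45114349), at 21 and 16 tags. The latter overlaps exons of Zeb2, of the antisense gene Zeb2os and of Gm27404 and Gm27645, so it cannot be given to one of them, and its scores of 75.2 for FLAG and 53.0 for BRG1 lay near the lowest score in the lists, 50. A NanogWT FLAG peak of 21 tags (chr2:45108239-45112197) lay beside it. Merging across gaps of 500 bp joins the 2 FLAG peaks, and FLAG is then no longer in NanogBiD alone at +3.9 kb. The scores at +45.8 kb in NanogBiD were 309.5 and 233.1. Neither of the 2 sites had a histone mark peak in either arm. These windows are shown on the plus strand because they are the Zeb2 sites at which FLAG and BRG1 rose or appeared together. The capitals in the first mark the OCT octamer, and the others hold no match.
Zeb2 +45.8 kb, chr2:45071516-45071716: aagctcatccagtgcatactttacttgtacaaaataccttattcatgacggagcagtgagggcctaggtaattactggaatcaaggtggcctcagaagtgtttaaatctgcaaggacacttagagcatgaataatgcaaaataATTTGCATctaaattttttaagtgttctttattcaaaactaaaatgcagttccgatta
Zeb2 +24.4 kb, chr2:45092905-45093105: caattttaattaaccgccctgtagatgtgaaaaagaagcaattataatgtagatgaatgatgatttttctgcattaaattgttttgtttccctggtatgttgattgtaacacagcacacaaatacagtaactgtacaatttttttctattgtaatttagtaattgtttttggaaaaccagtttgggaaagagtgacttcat
Zeb2 +3.8 kb, chr2:45113450-45113650: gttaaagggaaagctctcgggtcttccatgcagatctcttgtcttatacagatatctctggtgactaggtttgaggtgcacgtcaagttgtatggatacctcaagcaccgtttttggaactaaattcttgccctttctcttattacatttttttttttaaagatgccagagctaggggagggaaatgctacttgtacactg

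H3K27ac at the 5′ end of Zeb2 was present in both arms. Heights were 19 in NanogWT and 25 in NanogBiD at +0.8 kb, and 29 and 33 at +7.3 kb, a region with exons of Zeb2os and Gm27761, where FLAG at 21 was called in NanogWT alone. The scores ran against these heights, from 147 in NanogWT to 125 in NanogBiD at +0.8 kb and from 211 to 159 at +7.3 kb. H3K4me1 peaks were few and low, at 13, 12 and 12 tags in NanogWT and 14, 13 and 13 in NanogBiD, and the Zeb2 promoters had none.

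**Figure D3:**
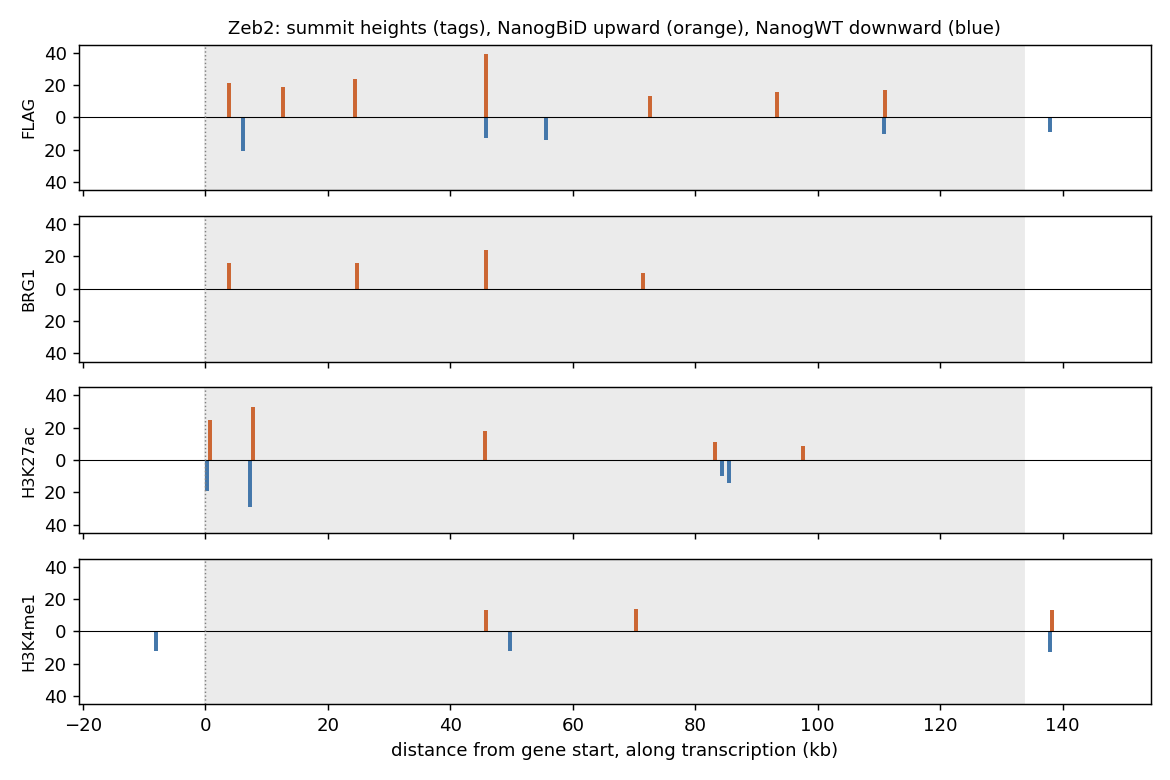
Summit heights in tags (y axis, NanogBiD upward in orange, NanogWT downward in blue) along Zeb2 (x axis, kb from the gene start, gene body in grey). All 4 BRG1 peaks are in NanogBiD, and at +45.8 kb the FLAG summit is 39 tags in NanogBiD and 13 in NanogWT.

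ZEB1, the paralogue of ZEB2, represses E-cadherin and the miR-200 genes. Its gene (chr18:5591860-5775467, plus strand) had FLAG heights of 25, 14, 14, 13, 12, 12 and 8 in NanogWT, and 27, 26, 14, 11 and 10 in NanogBiD. BRG1 heights were 16, 13 and 9 in NanogWT, and 17, 15, 13, 9, 8 and 7 in NanogBiD. The order of the FLAG peak numbers, 7 and 5, turned to 4 and 5 at a minimum score of 100 and to 1 and 2 both with the top 20000 peaks and with heights of at least 15 tags. At +93.1 kb in an intron, FLAG went from 14 to 27, a ratio of 1.93 (0.976 to 3.98), and BRG1 at 15 and H3K27ac at 11 were called in NanogBiD alone. At +86.2 kb, FLAG was 12 and 14, and BRG1 was called in NanogBiD alone at 8.

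FLAG and BRG1 were present together in NanogBiD alone at +108.9 kb, where they were low at 10 and 7 tags. They were present together in NanogWT alone at +12.3 kb, near another start site of Zeb1, at 8 and 9 tags, in a region where H3K27ac was 11 and 10. The site at +157.4 kb, over an exon, had every target in both arms, with FLAG at 25 and 26, BRG1 at 16 and 17 and H3K27ac at 21 and 23. At the promoter BRG1 was 13 in both arms, FLAG was 14 and 11, and H3K27ac was 17 and 18. That promoter region also covers exons of Gm10125 and Gm2238. H3K4me1 numbered 8 peaks of 10 to 16 tags in NanogWT and 9 of 10 to 15 in NanogBiD, and Zeb1 was the 1 gene with more H3K4me1 peaks in NanogBiD.

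SNAI1 (Snail) is a zinc finger repressor of E-cadherin. Its gene (chr2:167538195-167542814, plus strand) had 1 FLAG peak of 15 tags in NanogWT, and peaks of 19 and 16 in NanogBiD. The peak of 19 tags lay at the promoter, where BRG1 was 10 and 13, H3K27ac 10 and 13 and H3K4me1 19 and 22 in NanogWT and NanogBiD, so 3 targets were called there in both arms and FLAG in NanogBiD alone. The tallest BRG1 peak of any of the 10 windows lay at +15 kb, over an exon and near the start of Gm11476, at 31 tags in NanogWT and 23 in NanogBiD. All targets were present there in both arms, and FLAG was 15 and 16. A further BRG1 peak of 10 tags at +21.7 kb was found in NanogWT alone.

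SNAI2 (Slug), its paralogue, acts in neural crest and mesenchyme. At the promoter of Snai2 (chr16:14705852-14709385, plus strand) FLAG was 26 in NanogWT and 28 in NanogBiD, BRG1 was 16 and 18, and H3K27ac was 25 in both arms. H3K4me1 was 18 and 16, in peaks of the 2 arms that did not overlap each other. The ratios at this promoter were 1.08 (0.609 to 1.91) for FLAG, 1.12 (0.542 to 2.36) for BRG1 and 1.0 (0.551 to 1.81) for H3K27ac. No other peak of FLAG, BRG1 or H3K27ac lay in its window.

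PRRX1 is a paired-type homeodomain factor of limb and craniofacial mesenchyme. Its gene (chr1:163245119-163313710, minus strand) had FLAG heights of 36, 27, 14, 12 and 10 in NanogWT, and 43, 17, 14 and 12 in NanogBiD. The tallest site lay in an intron at +14.4 kb, with FLAG at 36 and 43 and BRG1 at 18 and 27. BRG1 at +21.7 kb (chr1:163291374-163292604, intron) went from 9 to 15, a ratio of 1.67 (0.683 to 4.32), the largest upward change in BRG1 among shared regions of the 10 windows, and FLAG in that region went from 10 to 17. H3K27ac was 16 and 17 there, and H3K4me1 was 13 in both arms. The FLAG region at this site reached within 2 kb of another Prrx1 start site, so it also counted as a promoter region.

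The promoter at the first Prrx1 start (+1.2 kb) had FLAG at 27 in NanogWT against 14 in NanogBiD, a ratio of 0.519 (0.251 to 1.02). The scores of these FLAG peaks were 83.4 and 59.3. BRG1 was called at this promoter in NanogBiD alone at 15 and H3K4me1 in NanogWT alone at 16. No H3K27ac peak was called there in either arm. At +61.3 kb, over an exon (chr1:163251593-163253195), FLAG at 12, BRG1 at 11 and H3K27ac at 12 were found in NanogWT and not in NanogBiD, and H3K4me1 was 16 and 12. This was the 1 region outside Zeb1 with FLAG and BRG1 together in NanogWT alone. The Prrx1 windows with the largest change in BRG1 and with FLAG and BRG1 in NanogWT alone are shown on the plus strand, centred on the FLAG summit in NanogBiD and NanogWT, respectively. Capitals in the second mark SOX and AP-1 matches, and the first holds none.
Prrx1 +21.7 kb, chr1:163291907-163292107: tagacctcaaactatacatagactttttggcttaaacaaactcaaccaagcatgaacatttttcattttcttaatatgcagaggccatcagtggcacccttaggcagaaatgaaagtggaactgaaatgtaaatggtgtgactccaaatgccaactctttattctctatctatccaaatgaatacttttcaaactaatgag
Prrx1 +61.2 kb, chr1:163252360-163252560: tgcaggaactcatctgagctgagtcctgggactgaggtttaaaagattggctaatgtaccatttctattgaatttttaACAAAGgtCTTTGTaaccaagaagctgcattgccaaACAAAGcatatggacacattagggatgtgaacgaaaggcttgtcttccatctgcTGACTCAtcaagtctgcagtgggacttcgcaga

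PRRX2 is the paralogue of PRRX1. Its window (gene at chr2:30834972-30881251, plus strand) had FLAG heights of 15 and 11 in NanogWT, and 21, 15, 13 and 8 in NanogBiD. BRG1 heights were 13, 9 and 9 in NanogWT and 13, 9 and 8 in NanogBiD. Apart from the peak of 13 tags, which lies over Asb6 at -7.4 kb, the BRG1 peaks were at different places in the arms. H3K27ac at Asb6 went from 23 to 34 tags, while its score went from 203 to 197, and at +30.3 kb in an intron the height was 20 in both arms. The FLAG peak of 13 tags and an H3K4me1 peak of 14 tags at +1.7 kb were found in NanogBiD alone. H3K4me1 numbered 9 peaks of 11 to 20 tags in NanogWT and 7 of 11 to 18 in NanogBiD, of which some lay over the neighbouring genes Asb6 and Ptges.

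OSR1 is a zinc finger factor of intermediate mesoderm and connective tissue. Its window (gene at chr12:9570116-9581500, plus strand) was the 1 window in which every FLAG peak was lower in NanogBiD. Heights were 27, 22 and 15 in NanogWT and 13, 14 and 12 in NanogBiD at the corresponding sites. The BRG1 heights at the first and second of these sites were 23 and 14 in NanogWT, and 13 and 12 in NanogBiD. At the region over the promoter (chr12:9573113-9578138, exon), the FLAG ratio was 0.481 (0.228 to 0.966) and the BRG1 ratio 0.565 (0.263 to 1.164), the largest fall in BRG1 among shared regions of the 10 windows. H3K27ac at 24 was called there in NanogBiD alone, and H3K4me1 at 17 in NanogWT alone. All of these promoter peaks had scores between 61.1 and 79.4, near the lowest score in the lists, so the presence or absence of H3K27ac there rests on a peak of score 70.6. At +14.8 kb H3K4me1 was 26 and 25. The sequence at the NanogBiD FLAG summit of the promoter region is shown on the plus strand as the site of the largest fall in BRG1 height. FLAG was also lower in height there, and the sequence holds no motif match. The scores there went from 65.6 to 61.1 for FLAG and from 77.0 to 79.4 for BRG1, so the BRG1 score did not fall with the height.
Osr1 +4.5 kb, chr12:9574505-9574705: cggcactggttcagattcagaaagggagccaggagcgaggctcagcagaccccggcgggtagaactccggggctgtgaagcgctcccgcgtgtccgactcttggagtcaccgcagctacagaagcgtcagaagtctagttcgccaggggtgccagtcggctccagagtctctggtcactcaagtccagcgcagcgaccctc

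TCF21 is a basic helix-loop-helix factor of fibroblast progenitors in heart and kidney. Its gene (chr10:22817281-22820174, minus strand) had the fewest FLAG peaks together with Snai2, 1 in each arm. That peak, at -17 kb and intergenic, was 13 and 17 tags high in the respective arms, with BRG1 at 15 in NanogBiD alone and H3K4me1 at 12 in NanogWT alone. At the Tcf21 promoter only H3K4me1 was called, at 15 and 11. No H3K27ac peak was present in the window in either arm.

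Over the promoters, defined as 2 kb either side of any start site of the gene, FLAG was present at 6 of the 10 genes in NanogWT and 9 in NanogBiD, beside 55.2% and 56.8% of all protein-coding genes. The 3 promoters with FLAG in NanogBiD alone were those of Prrx2, Twist2 and Snai1, with heights of 13, 9 and 19. BRG1 was present at 6 and 7 promoters, beside 53.9% and 55.5%, and H3K27ac at 6 and 7, beside 57.1% and 59.9%. H3K4me1 was present at 9 and 7, beside 63.3% and 62%.

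Peaks of each target were then merged across the arms into regions. FLAG formed 42 regions, of which 24 were shared, 57.1% (Wilson 95% interval 42.2 to 70.9) beside 50.5% genome-wide, 11 were found in NanogBiD only, beside 33.7%, and 7 in NanogWT only, beside 15.8%. BRG1 formed 35 regions, of which 13 were shared, 37.1% (23.2 to 53.7) beside 41.6%, 15 were in NanogBiD only, beside 48.4%, and 7 in NanogWT only, beside 9.91%. H3K27ac formed 29 regions with 17 shared, 58.6% (40.7 to 74.5) beside 56.4%, 7 in NanogBiD only, beside 29.1%, and 5 in NanogWT only, beside 14.6%. H3K4me1 formed 56 regions with 25 shared, 44.6% (32.4 to 57.6) beside 47.9%, 12 in NanogBiD only, beside 17.3%, and 19 in NanogWT only, beside 34.8%. Each interval for the shared share included the genome-wide share. The shares depended on how a region was defined. With windows of 100 bp on each side of the summit in place of whole peaks, FLAG was at 37.5%, BRG1 at 29.7%, H3K27ac at 26.3% and H3K4me1 at 22.4%, and with heights of at least 15 tags FLAG was at 32.1%.

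Among shared regions, FLAG was higher in NanogBiD at 16 and lower at 8 of 24, with a median log2 ratio of 0.19 beside 0.15 over all shared regions. A change of at least 1.5 times was seen upward at 5 and downward at 4, beside 22% and 8.45% of all shared FLAG regions. The FLAG regions that fell this far were those of the Prrx1 promoter at +1.2 kb, Twist1 at -17.4 kb and Osr1 at the promoter and +14.8 kb. Those that rose this far lay in Prrx1, Twist2, Zeb1 and, at 2 sites, Zeb2. BRG1 rose at least 1.5 times at 2 of 13 and fell at 1, beside 20.5% and 4.53%, with a median log2 ratio of 0.09 beside 0.14. H3K27ac rose this far at 1 of 17 and fell at 1, beside 9.59% and 4.01%, with medians of 0.09 and 0.08. H3K4me1 rose this far at none of 25 and fell at 1, beside 1.06% and 11.7%, with medians of -0.14 and -0.18. Of 79 shared regions of all 4 targets, the interval of the height ratio lay above 1 at 2, the FLAG regions of Zeb2 at +45.8 kb and Twist2 at +15.5 kb, and below 1 at 1, the FLAG region of the Osr1 promoter. Over all shared regions the interval lay above 1 at 3.21% and below 1 at 0.736%, and over those of FLAG at 6.63% and 1.78%. These intervals were not adjusted for the number of regions, and heights were not scaled to depth.

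**Figure D4:**
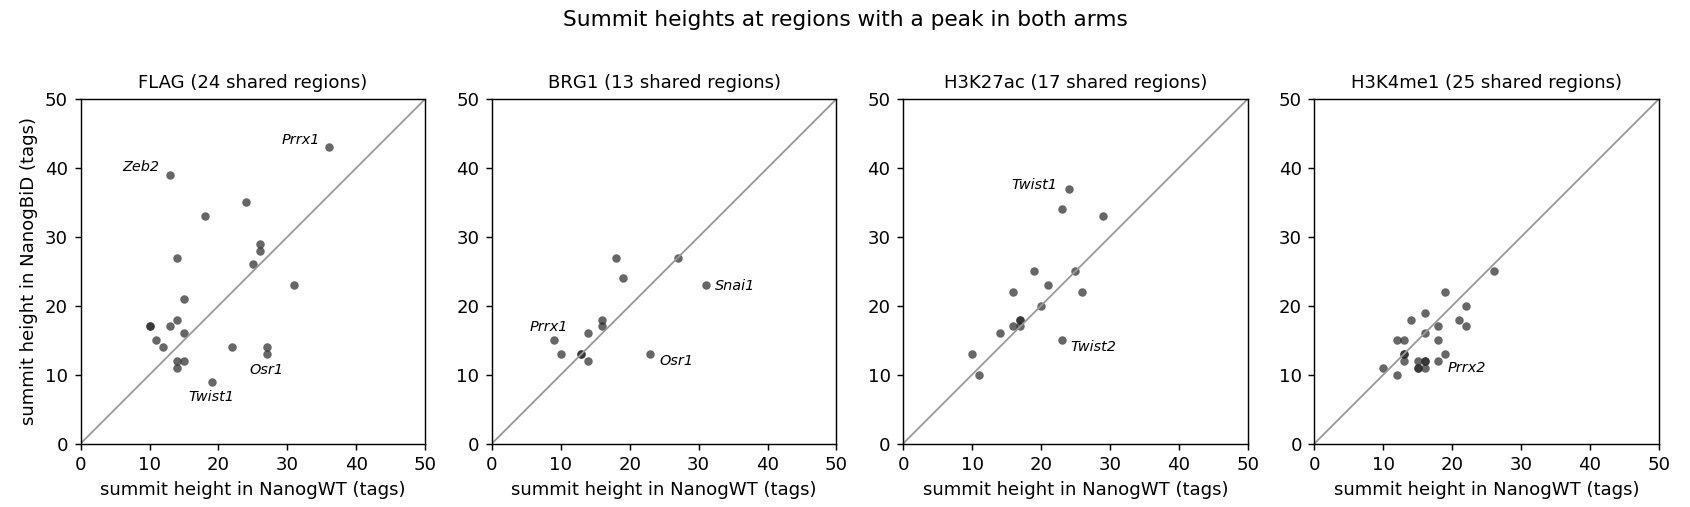
Summit height in NanogWT (x axis, tags) against NanogBiD (y axis, tags) at regions of the 10 windows with a peak in both arms, 1 point per region, with the line of equal height. FLAG points lie on both sides of the line, with Zeb2 at 13 and 39 tags farthest above it, and most H3K4me1 points (16 of 25) lie below it.

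When FLAG and BRG1 peaks of both arms were merged together, the windows held 47 regions. FLAG and BRG1 were both present in both arms at 12, or 25.5%, beside 23.7% of all such regions. FLAG was common to both arms and BRG1 called in NanogBiD alone at 8 regions, or 17.0%, beside 15.2%. These 8 lay in 7 genes, namely the Prrx1 promoter at +1.2 kb, Prrx2 at +51 kb, Twist1 at +15.3 kb, Twist2 at +23.8 kb, Zeb1 at +86.2 and +93.1 kb, Zeb2 at +45.9 kb and Tcf21 at -17 kb. FLAG was higher in NanogBiD at 7 of the 8, beside 71.6% of all regions of this class. H3K27ac at these 8 was called in NanogBiD alone at 3, beside 31.8%, in NanogWT alone at 2 (Prrx2 and Twist2), beside 3.86%, in both arms at none, beside 20.8%, and in neither arm at 3, beside 43.5%. The Prrx2 and Twist2 peaks in NanogWT had scores of 63.6 and 60.5, near the lowest score in the lists, 50. The summit of the Twist2 peak lay outside the FLAG and BRG1 region. The reverse, FLAG in both arms with BRG1 in NanogWT alone, was found at 0 of 47 regions, which allows a share of up to 6.38% (3 counts), beside 1.53% of all such regions. FLAG and BRG1 together in NanogBiD alone made up 4 regions, or 8.51%, beside 11.1%, and together in NanogWT alone 2 regions, beside 1.55%. FLAG in NanogBiD alone without BRG1 in either arm made up 4 regions, beside 18.5%.

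Within an arm, 14 of 31 FLAG peaks overlapped a BRG1 peak in NanogWT, 45.2% (29.2 to 62.2), and 25 of 35 did in NanogBiD, 71.4% (54.9 to 83.7). The shares over the whole lists were 44.1% and 64.7%. In the other direction, 70.0% of BRG1 peaks in NanogWT (48.1 to 85.5) and 89.3% in NanogBiD (72.8 to 96.3) overlapped a FLAG peak, beside 84.4% and 90.5%. FLAG peaks overlapped H3K27ac in 51.6% and 51.4% of cases, beside 48.9% and 48.3%. BRG1 peaks overlapped H3K27ac in 80.0% (58.4 to 91.9) and 60.7% (42.4 to 76.4), beside 77.3% and 62.8%. Each interval included the share over the whole list. The intervals of the arms overlapped in each of these comparisons, which does not show that the arms are alike, and the difference was not tested.

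**Figure D5:**
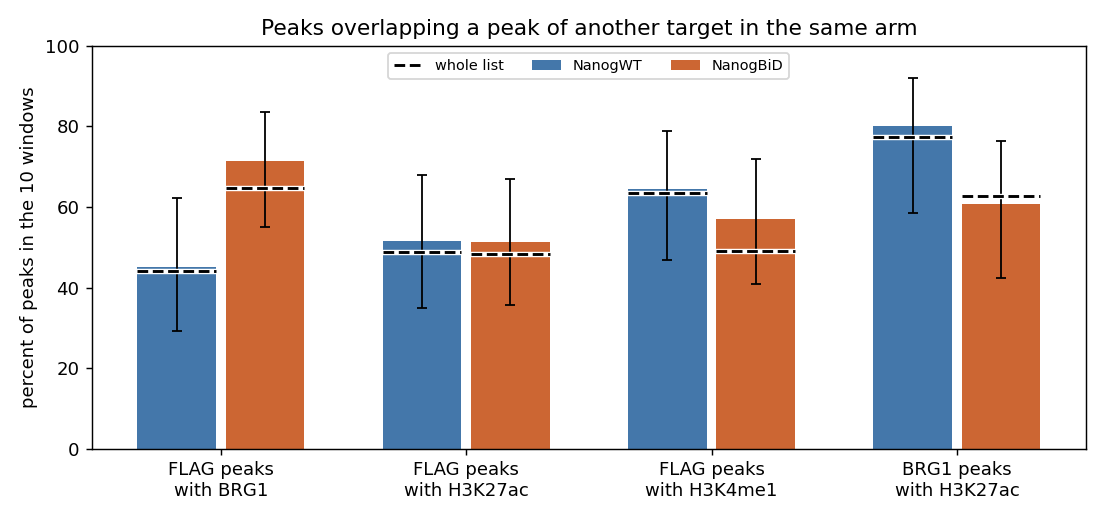
Percent of peaks in the 10 windows (y axis) that overlap a peak of another target in the same arm, with Wilson 95% intervals as error bars and the share over the whole list as a dashed line. FLAG peaks with BRG1 go from 45.2% in NanogWT to 71.4% in NanogBiD.

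Merging all 8 lists gave 71 regions in the windows, of which 10 (14.1%) had a peak in every list, beside 12% of all merged regions, and 25 (35.2%) had a peak in 1 list, beside 33%. H3K4me1 in NanogWT with no other peak made up 10 of the regions (14.1%), beside 12.2%, and H3K4me1 in NanogBiD with no other peak 4 (5.63%), beside 4.13%, so these classes lay near their genome-wide shares. In 15 regions a start site of another gene lay within 2 kb, so those peaks cannot be given to the mesenchymal gene alone.

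Short motifs were searched on both strands within 100 bp of the summits of the 42 FLAG regions, as a description of the letters present. The OCT octamer ATGCAAAT, bound by OCT4 with its partners, was found at 3 regions, 7.14% (2.46 to 19.01) beside 4.10% of all FLAG regions. These were Twist1 at -17.4 kb, where FLAG was 19 and 9, and Zeb2 at +45.8 and +111.2 kb, where it was 13 and 39, and 10 and 17. A SOX motif, ACAAAG or ACAATG, was present at 28.6% beside 29.2%, and the NANOG core TAATGG at 11.9% beside 12.4%. AP-1, TGANTCA, was present at 11.9% beside 17.8%, TEAD, GGAATG, at 9.52% beside 13.4%, and RUNX, TGTGGT, at 19.05% beside 17.7%. The E-box CAGGTG, bound by SNAIL and ZEB factors, was found at 4 regions, 9.52% (3.77 to 22.1) beside 8.75%, in the windows of Prrx2, Zeb1, Zeb2 and Osr1.

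Other genes of the same program were set beside these 10. In 26 further mesenchymal transcription factor genes, FLAG peaks numbered 130 in NanogWT and 144 in NanogBiD, BRG1 55 and 111, H3K27ac 86 and 102, and H3K4me1 160 and 129. BRG1 was more numerous in NanogBiD at 12 of the 26 and fewer at 2, and H3K4me1 was fewer at 17 and more numerous at 4. For this and the lists that follow, the shares over all protein-coding windows were 42.1% with more BRG1 peaks and 10.1% with fewer, 29.1% and 13.5% for H3K27ac, and 16.3% and 42.5% for H3K4me1. Most of the additional BRG1 peaks lay in the long windows of Foxp1 (13 and 33), Ebf1 (8 and 21) and Tcf4 (6 and 17), named after their values were seen. In 17 mesenchymal effector genes, such as those for vimentin, fibronectin and N-cadherin, BRG1 peaks numbered 41 and 67, with more in NanogBiD at 12 genes and fewer at 1. In 17 epithelial genes, BRG1 peaks numbered 22 and 28, with more at 6 and fewer at 1. H3K27ac peaks in these epithelial windows numbered 26 and 28, with more at 4 genes, fewer at 2 (Krt18 and Ovol2) and equal numbers at 11. In 13 naive pluripotency genes, BRG1 peaks numbered 10 and 21, with more at 8 and fewer at 1, and H3K27ac peaks 12 and 19, with more at 6 and fewer at none. The ratios of BRG1 peak numbers were 1.4 in the 10 genes, 2.02 in the 26 other mesenchymal factor genes, 1.63 in effector genes, 1.27 in epithelial genes and 2.10 in pluripotency genes, beside 1.74 for the whole lists, and differences between these groups of genes were not tested.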

How the data were processed

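CUT&Tag peak lists of FLAG-tagged NANOG, BRG1, H3K27ac and H3K4me1 were taken from 8 libraries, 1 per target and arm, grouped by their labels. Per the methods and processing notes of the submitters, the authors trimmed reads with Trim Galore 0.6.4, mapped them to mm10 with Bowtie2 2.4.5, filtered out repetitive, low-quality and mitochondrial alignments (SAMtools 1.16.1), merged replicates and called peaks with MACS 1.4.2, reducing duplicates to a single tag. No control library was named. In the deposited lists the score is the significance score of the caller (lowest value 50), and the signal deposited for a summit is its tag pileup, called height here and not scaled to depth. Tag totals are not in the lists, so a deeper library could have more peaks. The labels and the methods name different numbers of cells and library kits.

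Peaks overlapping a window by at least 1 bp were counted with Python 3.11.15, pandas 2.3.3, NumPy 2.4.6 and SciPy 1.17.1. Genes and start sites came from GENCODE M21 and sequence from the RefSeq copy of the GRCm38 genome, the same assembly as mm10. Overlapping or touching peaks were merged into regions, and the highest summit of each list was used. Ratios of counts and heights have exact binomial intervals and shares have Wilson intervals at 95%, which cover counting error only. For peak numbers the binomial interval ignores that many sites had a peak in both arms. Merging and counting were tested on simulated data. The members, the other gene lists and the markers were chosen with earlier results of these data known, and the limit of 1.5 times was set after the data had been seen. Regions were named when they overlapped a promoter of a member, held FLAG and BRG1 together in 1 arm only, or had the largest change in height in each direction for FLAG, BRG1 or H3K27ac, and further regions were named after their values were seen. Alternatives were flanks of 10 and 50 kb, a minimum score of 100, a minimum height of 15 tags, the top 20000 peaks by score, summit windows reaching 100 bp to each side, and merging across gaps of 500 bp.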

Additional observations from a re-analysis of the deposited data

Results flagged for a closer look

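Peak numbers in the 10 windows were higher in NanogBiD for FLAG (ratio 1.13), BRG1 (1.4) and H3K27ac (1.09) and lower for H3K4me1 (0.822). On the full lists the direction for H3K4me1 was thus opposite to that of the other targets. This did not hold for all settings. With the top 20000 peaks of each list, which makes the lists equal in size, H3K4me1 was 1.71 and H3K27ac 0.75, and with a score of at least 100 they were 1.0 and 0.875. This difference between targets was not tested, each ratio rests on 1 library per arm, and each interval includes 1.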

How the results depend on the processing

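No paired analysis was possible because replicates had been merged into 1 library per group before peaks were called. Of 20 recomputed ratios of peak numbers, 19 lay within the counting interval of the value given, which is wide, as did 21 of 28 shares of shared regions, and 11 of 20 counts of genes with more peaks in NanogBiD were within 1.5 times of it. FLAG and BRG1 ratios stayed above 1 under each setting tried, at 1.11 to 1.71 and 1.2 to 2.29, the highest BRG1 value being that with a score of at least 100 and with heights of at least 15 tags. The H3K27ac ratio fell to 0.75 (16 and 12 peaks) with the top 20000 peaks and 0.875 (16 and 14) with a score of at least 100, and was 1.0 with flanks of 10 kb. The H3K4me1 ratio was 0.536 with heights of at least 15 tags and 1.0 at a minimum score of 100. Limiting each list to its top 20000 peaks, which sets the ratio of the lists to 1, the H3K4me1 ratio was 1.71 (7 and 12 peaks), on the other side of 1, as for H3K27ac. In that setting the shared share of H3K4me1 was 26.7%, 5 genes had more H3K4me1 peaks and 1 gene had more H3K27ac peaks in NanogBiD. With a score of at least 100, more peaks were found at 7 genes for BRG1, 1 for H3K27ac and 2 for H3K4me1. Keeping only summits of 15 tags or more, the shared share was 32.1% for FLAG, 77.8% for H3K27ac and 26.5% for H3K4me1, and 0 genes had more H3K4me1 peaks. Flanks of 10 kb gave 2 genes with more BRG1 peaks, and flanks of 50 kb gave 6 for H3K27ac and 2 for H3K4me1. Windows of 100 bp around summits lowered the shared share to 37.5% for FLAG, 26.3% for H3K27ac and 22.4% for H3K4me1. Zeb2 had 0 BRG1 peaks in NanogWT under each setting except flanks of 50 kb, which gave 1 against 6 in NanogBiD. Its NanogBiD number went from 4 to 2 at a minimum score of 100 and to 1 with the top 20000 peaks. Flanks of 10 kb left out the BRG1 peak of Tcf21 and gave Twist1 2 peaks of each target in each arm. Where a gene had more peaks of a target in 1 arm, the order turned in 15 of 120 recomputed pairs of counts, among them FLAG at Zeb1. Pairs that became equal are not among the 15, so the other pairs did not all keep their order. BRG1 at Snai1, with 3 and 2 peaks on the full lists, was equal in the arms under each alternative that recomputed counts. The cause of these shifts was not tested. Depth is unknown and bears on all peak numbers, and a peak missing from a list can be a site just under the caller's threshold.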
